A study of Mus musculus with 6 samples.

Results

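The 10 genes described here are the TGF-beta ligands Tgfb1, Tgfb2 and Tgfb3, the BMP ligand Bmp4, the TGF-beta receptor Tgfbr2, the inhibitory Smads Smad6 and Smad7, and the Id genes Id1, Id2 and Id3. They were taken by name from the 24190 genes in the deposited counts, and all 10 were found and tested. RNA was sequenced from MTO54, a single mouse tumor organoid (MTO) line of colorectal cancer with the genotype labelled AKP, which includes mutations in Apc and p53 and lacks the Tgfbr2 mutation of the AKTP line used elsewhere in the study. The 6 samples were 3 control cultures in stem cell medium and 3 cultures in the same medium with Folfiri, which combined SN38 at 100 nM with 5FU at 50 μg/μl (unit copied from the labels). Treatment began 2 days after seeding of single cells in BME gel and lasted 2 days by the labels, while a figure legend of the study gives a longer time. SN38, the irinotecan metabolite, traps topoisomerase I on DNA, and 5FU is a fluoropyrimidine that disturbs DNA and RNA synthesis. Noggin, a BMP antagonist, and galunisertib, an inhibitor of the TGF-beta type I receptor kinase, are named in the study's methods as components of MTO medium that were left out of a coculture experiment. Whether both were present in these control and Folfiri cultures is not stated in the sources used here.

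TGF-beta ligands bind the receptor kinases TGFBR2 and TGFBR1, which phosphorylate SMAD2 and SMAD3. BMP ligands bind other receptors of the same family and act through SMAD1, SMAD5 and SMAD9, and both groups share the partner SMAD4. The Id proteins, whose genes are known targets of BMP signaling, bind E proteins and keep them from DNA, while SMAD6 and SMAD7 are induced by the pathway and feed back on it. In the intestine BMP signals rise from the crypt base towards the villus and restrain stem cells, and TGF-beta restrains epithelial growth.

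The totals on genes ranged from 22103591 to 30098210 counts per sample. Levels are given as CPM, counts scaled to library size and, by TMM factors, to library composition. The factors ran from 0.880 to 0.966 for controls and from 1.10 to 1.11 for treated cultures. Control replicate 1 stood apart from the other controls, with a chi-square statistic per degree of freedom of 23.7 and 22.4 against replicates 2 and 3, which differed from each other by 3.84. Folfiri replicate 3 differed from replicates 1 and 2 by 12.3 and 11.9, and those from each other by 3.55. A figure legend of the study calls the chemotherapy replicates biological, while the labels do not say how they were grown apart, and the tests measure the spread between these samples. In bulk RNA, fewer cells of a type and less RNA per cell cannot be told apart. The epithelial markers Epcam and Cdx2 were abundant in controls, at 1252 and 157 CPM. Epcam fell to 653 CPM and Cdx2 to 54.5 CPM after Folfiri (edgeR, log2 fold changes of -0.94 and -1.53). Cdh1 rose from 679 to 786 CPM and Cldn4 from 189 to 308 CPM (edgeR, log2 fold changes of 0.21 and 0.71). Of the 10 epithelial markers 5 fell, 2 rose and 3 did not pass the test, while 38.8% of all genes tested were called lower and 40.3% higher.

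After Folfiri, Id1, Id2, Id3 and Tgfbr2 rose by 2.05-fold to 2.53-fold, whereas Tgfb1, Tgfb3, Bmp4 and Smad6 fell by a factor of 1.66 to 2.66. Tgfb2 and Smad7 did not pass the test. Thus 8 of the 10 genes were called at an adjusted p under 0.05 in edgeR's quasi-likelihood test, 4 in each direction. The treatment changed most genes, and 79.1% of the 14692 genes tested were called, 40.3% as higher and 38.8% as lower, so the number of calls among the 10 was near the background. Of all calls 51.0% were higher, or 63.3% with total counts only, a scaling that shifted the median of all genes by 0.28 on the log2 scale. A call with a log2 fold change of at least 1 was made for 4 of the 10 genes, against 19.5% of all genes, and a call at -1 or less for Tgfb1 alone, against 16.8%, so 5 of 10 were beyond 1 in size, against 36.3%. The groups did not overlap for 8 of the 10 genes, against 81.4% of all genes tested. The median log2 fold change of the 10 genes was 0.01, beside 0.02 over all genes tested. By role, 3 of the 4 ligands and Smad6 were on the lower side, and the receptor and the 3 Id genes on the higher side.

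**Figure D1:**
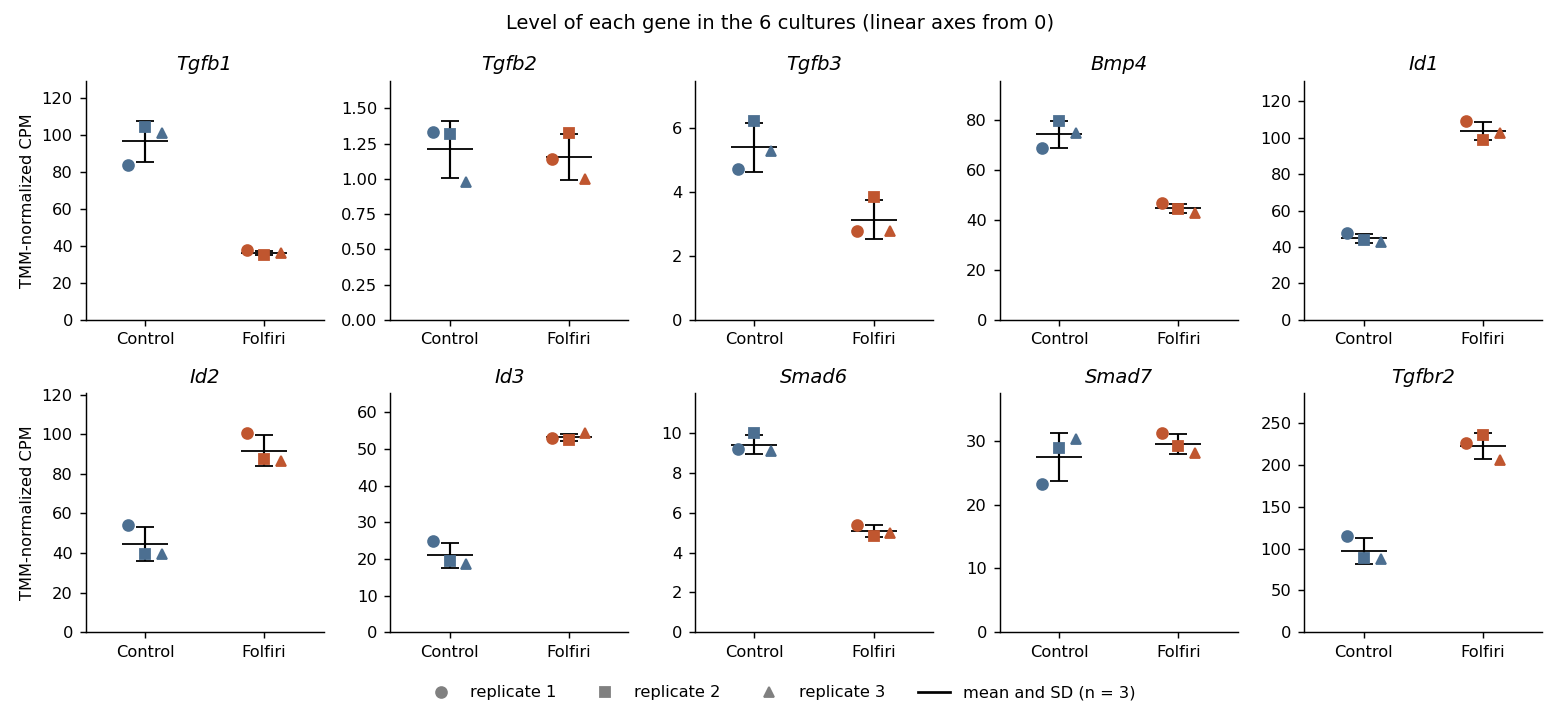
TMM-normalized CPM of each of the 10 genes (vertical axes, linear and starting at 0) in the 3 control and 3 Folfiri cultures (horizontal axis). Symbols mark replicates 1, 2 and 3, and bars the mean and SD. The groups are separate for 8 genes and overlap for Tgfb2 and Smad7.

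Tgfb1 (ENSMUSG00000002603, chromosome 7 of GRCm38 from 25687002 to 25705077) encodes the most widely expressed TGF-beta ligand. Its level was 83.9, 105 and 101 CPM in control replicates 1, 2 and 3 and 37.5, 35.3 and 36.2 CPM in Folfiri replicates 1, 2 and 3. All 3 treated cultures lay far below all 3 controls, and the treated cultures were close to each other. The mean went from 96.5 ± 11.1 to 36.3 ± 1.12 CPM (SD, n = 3 per group), and edgeR gave -1.41 on the log2 scale (SE of 0.09, adjusted p = 2.42e-07), the largest decrease among the 10 genes.

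Tgfb3 (ENSMUSG00000021253, chromosome 12 from 86056745 to 86079041) was expressed at a much lower level, with 131, 156 and 103 counts in the controls and 83, 119 and 92 counts in the treated cultures. As CPM the controls were at 4.72, 6.24 and 5.30 and the treated cultures at 2.78, 3.84 and 2.79, without overlap. The log2 fold change was -0.79 (SE of 0.18, edgeR adjusted p = 0.0018). Transcripts annotated on the opposite strand share 257 and 163 exonic bases with Tgfb3, and the library kit does not mark strand, so their reads cannot be told apart from those of Tgfb3.
Tgfb2 (ENSMUSG00000039239, chromosome 1 from 186622792 to 186705989) had only 37, 33 and 19 counts in the controls and 34, 41 and 33 counts in the treated cultures. Its levels of 0.977 to 1.33 CPM in controls overlapped those of 1.001 to 1.32 CPM after Folfiri. The log2 fold change was -0.09 with a 95% confidence interval from -0.57 to 0.40 (adjusted p = 0.722 from edgeR), so that changes within this interval cannot be told from none. The antisense gene Gm29491 shares 124 exonic bases with it.

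Bmp4 (ENSMUSG00000021835, chromosome 14 from 46383520 to 46390669) encodes a BMP ligand that in the intestine is best known from the mesenchyme. In these organoids it was at 68.8, 79.6 and 74.7 CPM in the controls and at 46.7, 44.3 and 43.0 CPM in the treated cultures. Each treated culture was below each control. The mean went from 74.4 ± 5.39 to 44.7 ± 1.89 CPM (SD, n = 3 per group), and edgeR gave -0.74 on the log2 scale (SE of 0.08, adjusted p = 9.15e-06). Bmp4 shares 89 exonic bases with Gm15217 on the opposite strand.
Markers of stroma were low beside these values. Of 10 fibroblast markers 8 had counts, and their summed level was from 1.08 to 1.49 CPM in the controls and from 2.15 to 2.65 CPM after Folfiri. Col1a2 and Col3a1 were at most at a mean of 0.0224 CPM in either group, while Dcn and Pdgfra rose to means of 0.694 and 1.14 CPM and Col1a1 fell to 0.301 CPM (edgeR, log2 fold changes of 4.44, 1.54 and -1.47). Pdgfra shares exonic bases with genes on the opposite strand. The 8 immune markers with counts of the 9 listed summed to 0.514 to 0.612 CPM in controls and to 1.43 to 1.68 CPM in treated cultures. Of 5 endothelial markers only Cdh5 was high, at 89.8 ± 29.8 CPM in controls and 70.6 ± 5.43 CPM after Folfiri, without passing the test (adjusted p = 0.0967 from edgeR). Kdr, another of these markers, had 0 counts in all controls and at most 4 after Folfiri. Pecam1 was at means of 0.470 CPM in controls and 0.459 CPM after Folfiri and did not pass the test either. The summed fibroblast and immune markers were higher in the cultures where Tgfb1 and Bmp4 were lower, and their part in the changes of the 10 genes was not tested.

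Tgfbr2 (ENSMUSG00000032440, chromosome 9 from 116084293 to 116175360) encodes the type II receptor that binds TGF-beta. Its level was 115, 89.2 and 87.9 CPM in the controls and 227, 236 and 206 CPM in the treated cultures. The lowest treated culture was well above the highest control. The mean went from 97.3 ± 15.2 to 223 ± 15.4 CPM (SD, n = 3 per group), and edgeR gave 1.19 on the log2 scale (SE of 0.11, adjusted p = 2.17e-06). Its partner Tgfbr1, the type I receptor, was at 33.2 ± 0.556 CPM in the controls and 35.4 ± 4.11 CPM after Folfiri, and edgeR gave 0.09 on the log2 scale (SE of 0.09, adjusted p = 0.387). With scaling by total counts only, Tgfbr1 was called higher, at a log2 fold change of 0.37.
The other receptors were mixed. Of 12 receptor genes besides Tgfbr2, 9 were tested, 3 rose (5 with total counts only) and 3 fell, and their median log2 fold change was 0.09. Acvr1 and Acvr2a, receptors for BMP and activin ligands, rose at log2 fold changes of 0.66 and 0.36. Bmpr2, the type II BMP receptor, fell at -0.79, and Tgfbr3, which presents TGF-beta to the signaling receptors, fell at -0.75 (edgeR, adjusted p = 9.56e-05 and 0.000189). Orc4 shares exonic bases with Acvr2a on the opposite strand, and a further gene on the same strand overlaps exons of Tgfbr3.

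The inhibitory Smads differed. Smad6 (ENSMUSG00000036867, chromosome 9 from 63953076 to 64022059), which acts mainly on BMP signals, was at 9.18, 10.0 and 9.10 CPM in the controls and at 5.40, 4.81 and 5.01 CPM in the treated cultures. The groups were separate and each was tight. The log2 fold change was -0.90 (SE of 0.12, edgeR adjusted p = 3.78e-05).
Smad7 (ENSMUSG00000025880, chromosome 18 from 75367529 to 75395935), which blocks both TGF-beta and BMP receptors, was at 23.2, 28.9 and 30.2 CPM in the controls and at 31.2, 29.2 and 28.2 CPM in the treated cultures. Control replicate 1 was the lowest of the 6 samples and the other controls lay within the range of the treated cultures. The log2 fold change was 0.11 with a 95% confidence interval from -0.13 to 0.34 (adjusted p = 0.363 from edgeR). Smad7 was the 1 gene of the 10 whose call depended on the scaling, since total counts alone gave a log2 fold change of 0.39 and a call (adjusted p = 0.00429 from edgeR).
Among the 6 receptor-regulated and common Smads, Smad1 and Smad2 rose at log2 fold changes of 0.70 and 0.23, the latter without a call when no expression filter was used (0.20, edgeR adjusted p = 0.0501), and Smad9 was called higher at a mean of 0.658 CPM. Smad3 fell at -0.60 and Smad4 at -0.76 (edgeR, adjusted p = 5.76e-05 and 5.6e-06), and Smad5 did not pass the test. Smad4, the partner of all of them, went from 142 ± 9.09 to 84.1 ± 5.16 CPM (SD, n = 3 per group).

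Id1 (ENSMUSG00000042745, chromosome 2 from 152736251 to 152737410) was at 47.7, 43.9 and 42.7 CPM in the controls and at 109, 99.0 and 103 CPM in the treated cultures. The 3 treated cultures all stood far above the controls. The mean went from 44.8 ± 2.60 to 104 ± 5.19 CPM (SD, n = 3 per group), and edgeR gave 1.21 on the log2 scale (SE of 0.08, adjusted p = 1.81e-07).
Id2 (ENSMUSG00000020644, chromosome 12 from 25093799 to 25097140) was at 54.3, 39.6 and 39.6 CPM in the controls and at 100.5, 87.7 and 86.4 CPM in the treated cultures. Replicate 1 was the highest of its group in both conditions, and the groups were separate. The log2 fold change was 1.04 (SE of 0.12, edgeR adjusted p = 1.87e-05).
Id3 (ENSMUSG00000007872, chromosome 4 from 136143497 to 136145755) was at 24.9, 19.5 and 18.5 CPM in the controls and at 52.9, 52.4 and 54.3 CPM in the treated cultures. Its log2 fold change was 1.34 (SE of 0.11, edgeR adjusted p = 1.04e-06), and its treated cultures were nearly equal. This was the largest increase of the 10 genes, although with the trend of span taken out Id1 rose more, at 1.57 against 1.42.
The remaining family member, Id4, went the other way. Its counts were 343, 328 and 278 in the controls and 268, 229 and 192 in the treated cultures, a fall from 13.3 ± 0.979 to 7.40 ± 1.58 CPM (SD, n = 3 per group) at a log2 fold change of -0.84 (SE of 0.15, edgeR adjusted p = 0.000425). Id4 was listed among the BMP targets and is named because it completes the family, and transcripts on the opposite strand share 171 and 82 exonic bases with it.

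**Figure D2:**
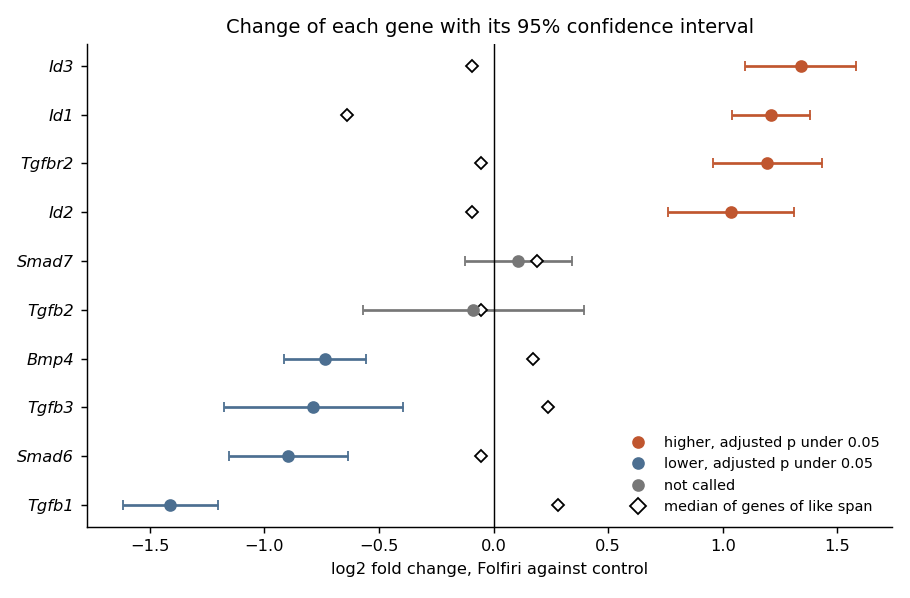
Log2 fold change of each of the 10 genes, Folfiri against control (horizontal axis), with the 95% confidence interval from edgeR. Open diamonds mark the median over tested genes in the same decile of genomic span. Id1, Id2, Id3 and Tgfbr2 lie above 1 and 4 genes lie below -0.7, while the intervals of Tgfb2 and Smad7 include 0.

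Over all genes tested the median change differed with genomic span, and the plot shows it for the deciles of the 10 genes. Among these deciles it rose from short to middle spans and was lower again for the longest of the 10 genes. Genes in the same decile of genomic span as Id1, which spans 1160 bases, had a median log2 fold change of -0.64, against 1.21 for Id1 itself. For Tgfb1, which spans 18076 bases, the median of its decile was 0.28, against -1.41 for the gene. Tgfbr2 spans 91068 bases, and the median of its decile was -0.05, against 1.19. For each of the 8 called genes the median of its decile lay outside the confidence interval of the gene. With the trend of span taken out, the 8 genes kept their calls, with log2 fold changes of 1.57 for Id1, 1.42 for Id3, 1.27 for Tgfbr2, 0.98 for Id2, -0.91 for Smad6, -0.95 for Bmp4, -1.07 for Tgfb3 and -1.74 for Tgfb1.

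Promoter stretches are printed for Smad6, Id4, Id2 and Tgfbr2, which lie on opposite sides of the response and whose windows held a motif. They come from RefSeq on GRCm38.p6, where a promoter window runs from 250 bases before to 50 bases after a start site, and 7 of the 10 genes and Id4 had a window. Windows for Id1, Tgfb3 and Smad7 were not analysed here. Both strands were searched for GTCTAGAC, the palindromic Smad-binding element, for CAGAC, a short Smad box, and for GGCGCC, a GC-rich Smad element, none of which holds another. Capitals mark the motif found. The Smad6 stretch is on the minus strand at chr9:64022050-64022259, that of Id4 on the plus strand at chr13:48260866-48261115, that of Id2 on the minus strand at chr12:25096254-25096342, where it stops at an annotated exon, and that of Tgfbr2 on the minus strand at chr9:116175364-116175613. For Id2 and Id3 the RefSeq start site lies inside the gene as GENCODE annotates it, so their windows precede the start of a shorter transcript, and the Id2 stretch lies within the gene whose reads were counted.
Smad6: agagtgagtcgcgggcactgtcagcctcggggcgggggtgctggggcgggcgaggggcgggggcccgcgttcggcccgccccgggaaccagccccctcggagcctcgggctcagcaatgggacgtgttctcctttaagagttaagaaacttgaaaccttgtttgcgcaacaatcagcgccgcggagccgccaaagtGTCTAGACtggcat
Id4: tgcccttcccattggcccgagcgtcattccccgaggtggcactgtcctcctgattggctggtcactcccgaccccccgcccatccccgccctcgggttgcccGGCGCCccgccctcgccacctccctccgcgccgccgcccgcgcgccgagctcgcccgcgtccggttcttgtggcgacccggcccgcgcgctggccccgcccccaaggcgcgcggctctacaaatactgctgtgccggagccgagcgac
Id2: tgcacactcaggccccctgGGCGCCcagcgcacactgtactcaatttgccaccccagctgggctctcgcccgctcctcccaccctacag
Tgfbr2: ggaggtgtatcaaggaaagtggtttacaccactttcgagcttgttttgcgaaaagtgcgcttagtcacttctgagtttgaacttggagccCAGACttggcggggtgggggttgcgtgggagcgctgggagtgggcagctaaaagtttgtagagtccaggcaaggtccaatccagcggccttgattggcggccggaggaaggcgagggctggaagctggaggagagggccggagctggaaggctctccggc
The element GTCTAGAC was found only in the window of Smad6, starting 4 bases before its start site, and is held by 0.213% of all 32851 RefSeq promoter windows. GGCGCC was found once for Id2, which rose, and once for Id4, which fell, at 231 and 148 bases before the RefSeq start site, and 11.9% of all windows hold it. CAGAC, which 49.6% of all windows hold, was found once for Tgfbr2, at 160 bases before the start site, and at 2 places each for Id3 and Tgfb2. The windows of Tgfb1 and Bmp4 held none of these letters. These matches describe letters and were not measured as binding sites.

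Levels of different genes were compared per kilobase of exonic length. In control MTOs the order was Id1 at 38.6, Bmp4 at 33.1, Tgfb1 at 19.1, Id2 at 18.3, Tgfbr2 at 11.9, Id3 at 11.7, Smad7 at 6.07, Smad6 at 2.94, Tgfb3 at 1.60 and Tgfb2 at 0.209 CPM per kb. The ranges of Tgfb1 and Id2 overlapped, as did those of Tgfbr2 and Id3, and no other neighbours in that order did. After Folfiri the order was Id1 at 89.4, Id2 at 37.5, Id3 at 29.7, Tgfbr2 at 27.2, Bmp4 at 19.9, Tgfb1 at 7.21, Smad7 at 6.53, Smad6 at 1.58, Tgfb3 at 0.928 and Tgfb2 at 0.199 CPM per kb, with no overlap between neighbours. Id1 was first in both groups, and Id2, Id3 and Tgfbr2 stood below Bmp4 in the controls and above both Bmp4 and Tgfb1 after Folfiri. The place of Tgfb1 depends on the length used, since by its longest annotated transcript it stood at 37.5 CPM per kb in the controls, above Bmp4 at 36.0, and at 14.1 after Folfiri, below Bmp4 at 21.6.

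Within each family the composition of transcripts was taken as the share of each gene in the family's summed level per kilobase, which does not depend on library scaling. Id1 made up 51.1%, 55.3% and 54.9% of the Id sum in the controls and 56.3%, 56.0% and 56.8% in the treated cultures. Id4 made up 3.98%, 4.98% and 5.53% in the controls and 1.40%, 1.26% and 0.970% in the treated cultures. The share of Id4 was thus below every control in every treated culture, with a mean difference of -3.62 percentage points. Id3 went from 16.2% ± 0.974 to 18.8% ± 0.963 (SD, n = 3 per group), without overlap, and Id2 from 25.2% ± 2.14 to 23.6% ± 0.954, with overlap. Among the TGF-beta ligands Tgfb1 made up 91.4% ± 0.605 of the sum in the controls and 86.5% ± 2.41 after Folfiri (SD, n = 3 per group). Tgfb3 went from 7.63% ± 0.452 to 11.1% ± 2.12, and Tgfb2, on few counts, from 1.01% ± 0.243 to 2.39% ± 0.313. Exact two-sided permutation tests gave p = 0.1 for 6 of the 7 shares, the smallest that 3 samples against 3 allow, and p = 0.4 for Id2, with adjusted values of 0.117 and 0.4 (Benjamini-Hochberg over the 7). No share could therefore pass a threshold of 0.05 in this design. By the longest transcript the groups also overlapped for Id1 (exact p = 0.2), and the differences were -2.89 points for Tgfb1 and 2.02 points for Tgfb3, against -4.88 and 3.50 points by exonic length. Without control replicate 1 the difference was 1.27 points for Id1, against 2.62, and -0.35 points for Id2, against -1.57. Without Folfiri replicate 2 it was 2.28 points for Tgfb3.

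**Figure D3:**
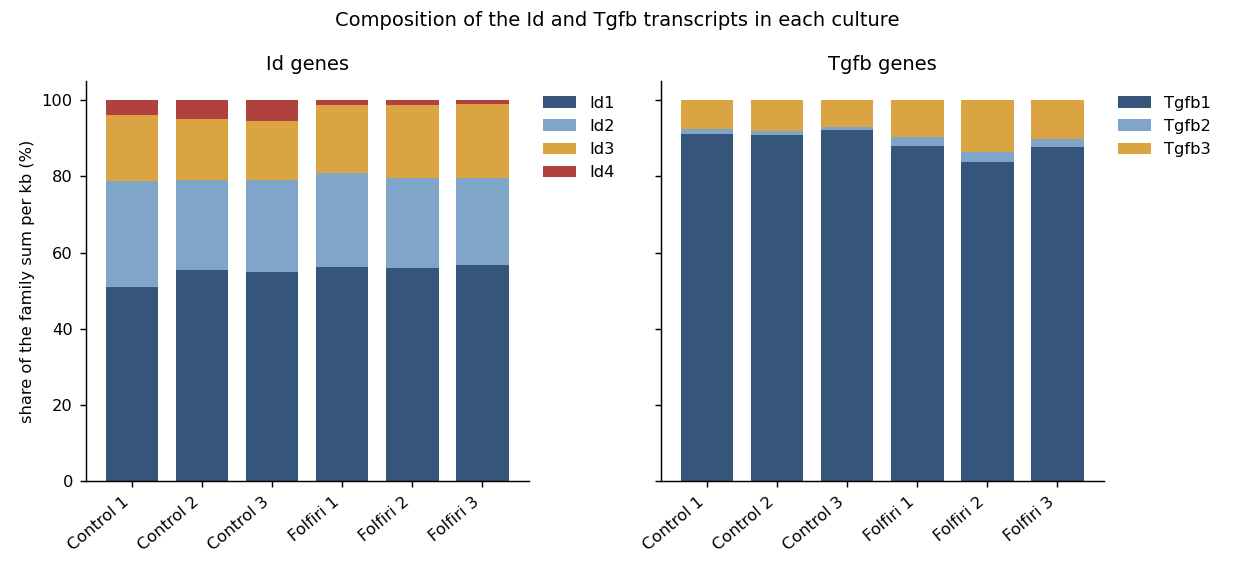
Share of each gene in the summed level per kb of exonic length (vertical axis, percent, from 0) of the Id genes and of the Tgfb genes in each of the 6 cultures (horizontal axis). The Id4 segment shrinks from 3.98% or more in the controls to 1.40% or less after Folfiri, and Tgfb1 remains the main ligand in every culture.

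The Id proteins act by binding E proteins, so the E protein genes were set beside them. Tcf3, which encodes E2A, rose from 58.0 ± 5.94 to 98.6 ± 1.80 CPM (SD, n = 3 per group) at a log2 fold change of 0.76, while Tcf4 and Tcf12 fell at -0.51 each (edgeR, adjusted p = 8.94e-06, 0.00149 and 4.1e-05). The fall of Tcf4 lost its call with total counts only, at -0.24, and with the trend of span taken out, at 0.09. Ascl2, a stem cell factor of the same helix-loop-helix superfamily but not an E protein, fell at -0.59, which was not called with total counts only, at -0.32. Of the 8 partner genes listed, 5 were tested, with 1 higher and 3 lower, or 1 lower with total counts only. Per kilobase, the sum of Id1 to Id4 was from 67.1 to 80.5 CPM per kb in the controls and from 152 to 167 after Folfiri, while that of Tcf3, Tcf4 and Tcf12 was from 35.1 to 38.5 and from 38.8 to 40.7. The ratio of the 2 sums was 2.09, 1.92 and 1.91 in the controls and 4.11, 3.80 and 4.02 in the treated cultures, a description of transcripts chosen after the values were seen.

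Each list of other pathway genes held calls in both directions, beside 40.3% called higher and 38.8% lower among all genes tested. Some genes, such as Bambi, Smad9, Pmepa1 and Itgb6, stand in more than 1 list. Of 24 other ligand genes, 11 were tested, with 4 higher and 4 lower and a median log2 fold change of 0.20. Gdf15, a stress-induced member of the superfamily, fell from 126 ± 18.8 to 10.1 ± 0.785 CPM (SD, n = 3 per group), and edgeR gave -3.63 on the log2 scale (SE of 0.12, adjusted p = 4.48e-09). Bmp7, a BMP ligand, fell at -2.15 and stayed below 2 CPM on average. Bmp2, which is closely related to Bmp4 and is named for that reason, fell as Bmp4 did, from 93.7 ± 4.91 to 51.5 ± 5.31 CPM, at -0.86 (SE of 0.09, edgeR adjusted p = 5.52e-06). The rising ligands started from low levels. Inhba, the subunit of activin A, went from 13, 6 and 0 counts in the controls to 68, 94 and 62 after Folfiri, and Amh, anti-Mullerian hormone, from 5, 4 and 2 to 146, 151 and 146 counts.
Extracellular antagonists had 8 tested genes, 5 higher and 2 lower, with a median log2 fold change of 0.43. Bmper, which binds BMPs outside the cell, rose from 0.265 ± 0.169 to 7.75 ± 2.06 CPM (SD, n = 3 per group), and Fst, the activin-binding follistatin, at a log2 fold change of 1.66. Its relative Fstl3 fell at -1.30, and Bambi, a pseudoreceptor and target of BMP signaling, fell at -0.69. Fst and Fstl3 share exonic bases with genes on the opposite strand. The antagonists Nog and Grem1 were among those too low to be tested.

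TGF-beta is secreted in a latent form that other proteins hold and release. Of 11 such genes 6 were tested, 2 rose (4 without control replicate 1) and 3 fell. Ltbp3 and Ltbp4, which tether latent TGF-beta to the matrix, fell at log2 fold changes of -1.45 and -2.42. Ltbp3 went from 239 ± 21.2 to 87.6 ± 5.92 CPM (SD, n = 3 per group). Thbs1 and Itgb6, whose products activate latent TGF-beta, rose at 2.23 and 1.79, and Itgb6 went from 4.71 ± 0.462 to 16.4 ± 2.66 CPM (SD, n = 3 per group). Itgav, the partner chain of Itgb6 and the third gene to fall, did so at -0.66. Tgfb1 and these tethering genes were lower, and the activator genes Thbs1 and Itgb6 higher, in the same cultures. Exonic bases of Ltbp3, Thbs1 and Itgav are shared with genes on the opposite strand.
Of 12 intracellular regulators, all tested, 3 rose and 4 fell. With total counts only, 8 were called higher and 3 lower, and 5 were called higher with the trend of span taken out or without control replicate 1. Pmepa1, a TGF-beta target that restrains the pathway, rose at a log2 fold change of 1.72, and Usp15, a deubiquitinase that acts on the pathway, at 0.48. Tgif1, a corepressor of SMAD2, fell at -0.67. Ldlrad4, an inhibitor of SMAD activation, fell at -0.88, which was not called with the trend of span taken out. Exons of Ldlrad4 are shared with Fam210a on the opposite strand, and those of Usp15 with other genes.

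Of 20 known TGF-beta target genes, 19 were tested, 9 rose and 8 fell, with a median log2 fold change of 0.18. Both shares were near the 40.3% and 38.8% of all genes tested. Bhlhe40, a transcriptional repressor, fell from 1152 ± 137 to 102 ± 6.88 CPM (SD, n = 3 per group) at -3.50 (SE of 0.11, edgeR adjusted p = 3.17e-09). Angptl4, a regulator of lipoprotein lipase, rose from 0.908 ± 0.286 to 10.3 ± 1.32 CPM at 3.46, and Ccn2, also known as Ctgf, rose at 2.60. The study counts Ctgf among canonical YAP targets and reports that Folfiri raised it. Exonic bases of Ccn2, Bhlhe40 and the BMP target Tbx3 are shared with genes on the opposite strand.
Of 10 BMP target genes other than the members, 8 were tested, and all 8 were called, against 79.1% of all genes tested. The 5 that fell were Id4, Bambi, Msx1, Dlx3 and Tbx3, and the 3 that rose were Atoh8, Smad9 and Msx2, each at a mean below 1 CPM after Folfiri and none tested when 1 CPM was required in 3 samples. Msx1 fell at a log2 fold change of -0.86 and Tbx3, a transcription factor, fell from 127 ± 7.17 to 70.7 ± 11.0 CPM (SD, n = 3 per group) at -0.85. The median of the list was -0.56, beside increases in Id1, Id2 and Id3. The more abundant BMP targets therefore lay on both sides, with 3 Id genes higher and the fourth lower together with Bambi, Msx1, Tbx3 and Smad6.

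**Figure D4:**
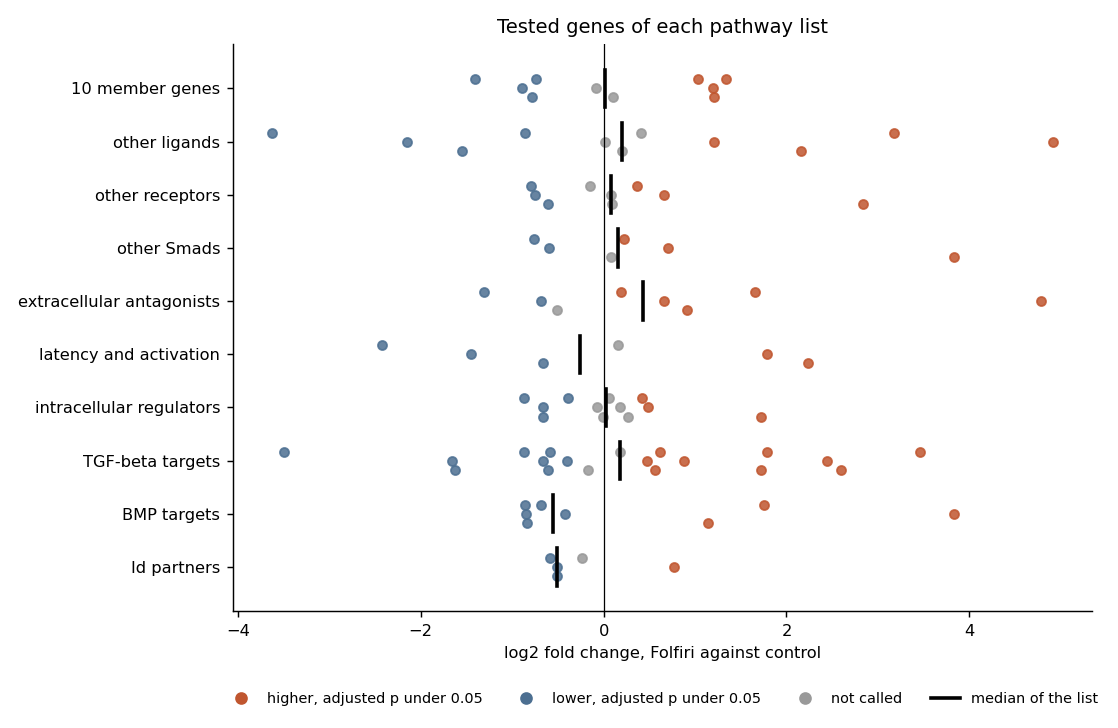
Log2 fold change, Folfiri against control (horizontal axis), of every tested gene of the 10 member genes and of the 9 pathway lists (rows). Each point is a gene, coloured by its call at an adjusted p under 0.05 in edgeR's test, and the black bar is the median of the list. The medians run from -0.56 for the BMP targets to 0.43 for the extracellular antagonists.

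The control culture that stood apart lay towards the treated cultures for most of the 10 genes. Control replicate 1 was the control nearest to the Folfiri mean for 7 of the 8 called genes, all but Smad6. Over all called genes it was the nearest for 60.8%. Without control replicate 1, the log2 fold changes were -1.50 for Tgfb1, 1.49 for Id3, 1.33 for Tgfbr2, 1.26 for Id1 and 1.21 for Id2. Without Folfiri replicate 3, Tgfb1 was at -1.40, Id3 at 1.33, Tgfbr2 at 1.25, Id1 at 1.22 and Id2 at 1.08. Across the 6 fits that each left out a sample, all 8 called genes kept their call and direction.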

How the data were processed

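Poly(A) RNA of 3 control and 3 Folfiri cultures of MTO54 was sequenced. The authors aligned reads with STAR 2.5.2 to GRCm38 with GENCODE annotation and counted them per gene with Rsubread, and the deposited values are raw counts, not normalized. The NEBNext library kit does not mark strand, and the treatment of reads with several positions is not given in the sources used here. Symbols and positions came from GENCODE on the same build, which held 24168 of the 24190 identifiers.

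Counts were tested with edgeR 4.0.16 in R 4.3.3 (expression filter, TMM, quasi-likelihood, Benjamini-Hochberg over all genes tested). On simulated data with 200 genes changed by a factor of 2, 175 were recovered. Of the genes left unchanged 17 were called, with 14478 genes tested in all. The simulation changed few genes while the treatment changed most, so it cannot show how the scaling holds under such a shift. The confidence intervals come from the quasi-likelihood test and include the spread between the samples of a group. Shares were tested by exact permutation in scipy 1.17.1. Alternatives were 3 other scalings, 2 other filters, DESeq2 1.42.0, a replicate block, a loess trend of genomic span (span 0.3) as offset, each sample left out, and transcript length.

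The members and lists were chosen with earlier results of these data known. Named genes were the members, Tgfbr1, Smad4 and, per list and direction, up to 2 called genes with the largest change, separate groups and a mean of at least 1 CPM in a group. A gene that this rule names is not reported here. Other pathway genes given with values (Bmp2, Id4, Itgav, Tcf12 and Smad9) and the markers were named after their values were seen.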

Additional observations from a re-analysis of the deposited data

How the results depend on the processing

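The 8 calls among the 10 genes held under all 8 alternatives to the scaling, filter, test and design and in the 6 fits without a sample. Scaling by total counts moved the median of all genes by 0.28 on the log2 scale and the share of higher genes among all calls from 51.0% to 63.3%. Smad7 then gained a call at 0.39 and Tgfb2 turned to 0.18, without a call. The called decreases became smaller, such as Bmp4 at -0.46 and Tgfb3 at -0.51, and the called increases larger, such as Id3 at 1.61. The rising counts became 5 for other receptors and 8 for intracellular regulators, and the falling count of Id partners became 1. With the trend of span as offset, Smad7 turned to -0.14, without a call, and 5 intracellular regulators rose. With at least 1 CPM in 3 samples, 0 BMP targets rose, because the low genes were no longer tested. The difference in the share of Tgfb2 was 0.869 percentage points by the longest transcript and 1.38 by exonic length.

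Without a sample, the log2 fold change ranged from -0.21 to 0.012 for Tgfb2, turning sign without Folfiri replicate 3, and from 0.00012 to 0.17 for Smad7. The rising genes numbered from 2 to 4 for latency and activation and from 3 to 5 for intracellular regulators, each highest without control replicate 1.

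The labels do not say whether equal replicate numbers pair samples. The correlations of their deviations were 0.0267, -0.117 and 0.0393 for numbers 1, 2 and 3. Unequal numbers gave values from -0.118 to 0.120, so these correlations cannot decide it. With the replicate block, 11499 genes were called in place of 11623, the members' calls were 4 higher and 4 lower as before, and Tgfb1 was at -1.40 and Id1 at 1.21. Tgfb2, with at most 41 counts in a sample, had the fewest counts of the 10 genes. The cause of these moves was not tested, apart from the filter.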
